A study of Mus musculus with 8 samples.

Results

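The 361 genes described here are the expressed genes along mouse chromosome 19 in 4 pro-B cell lines, out of 10479 genes tested on all chromosomes. A gene was a member when its locus lay on chromosome 19 and it reached 1 FPKM (fragments per kilobase of transcript, scaled to the mapped reads of the library) in at least 2 of the 8 libraries. Of 780 symbols on the chromosome, 394 were below that filter, 1 had a quantification status other than OK, and 24 expressed genes, of 27 set aside by name, were left out. RNA came from cultured lines of 129SV mouse bone marrow grown without treatment, and each line gave 2 libraries. The WT line carried no named deletion. Lines CBE-/- (1) and CBE-/- (2), of genotype IGCR1-/-, lacked CTCF-binding elements in IGCR1, a control region of the immunoglobulin heavy chain (IgH) locus. The Eµ-/- line lacked the intronic enhancer Eµ of that locus. Only 1 line stood for WT and only 1 for the Eµ deletion, so genotype and line cannot be told apart.

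Pro-B cells are the bone marrow precursors in which the IgH genes on chromosome 12 are joined by V(D)J recombination. Chromosome 19 is the smallest mouse autosome and holds none of the deleted elements. It is gene-dense near its proximal end, and its genes serve unrelated roles: respiratory chain and other mitochondrial proteins, splicing and transcription factors, replication proteins, lipid enzymes, trafficking proteins and immune genes. Of 10 pro-B marker genes, 8 were at 1 FPKM or more in all 8 libraries, and the 10 together summed to 2572 to 3795 FPKM. The other 2, Rag1 and Rag2 of the recombinase, reached 1 FPKM in the 6 mutant libraries and were near 0 in both WT libraries. Rag1 was at 0.043 and 0.029 FPKM in WT and 3.77 to 13.8 FPKM in the mutant libraries. Rag2 was at 0.021 and 0.0054 FPKM in WT and 1.93 to 5.38 FPKM in the mutant libraries. The 4 T cell markers summed to at most 0.0269 FPKM.

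A few genes differed by more than the rest of the chromosome, or against it, and the 250 bases before the first RefSeq start site of 4 of them are shown with each CG dinucleotide in capitals. Atrnl1 (chr19:57610784-57611033, plus strand), Zfp518a (chr19:40894455-40894704, plus strand) and Tmem109 (chr19:10881744-10881993, minus strand) were lower in WT, and Mpeg1 (chr19:12460520-12460769, plus strand) had the largest difference in the other direction. These coordinates are of the RefSeq table's build, GRCm38.p6, whereas all other coordinates given are those of mm9 in the files.
Atrnl1: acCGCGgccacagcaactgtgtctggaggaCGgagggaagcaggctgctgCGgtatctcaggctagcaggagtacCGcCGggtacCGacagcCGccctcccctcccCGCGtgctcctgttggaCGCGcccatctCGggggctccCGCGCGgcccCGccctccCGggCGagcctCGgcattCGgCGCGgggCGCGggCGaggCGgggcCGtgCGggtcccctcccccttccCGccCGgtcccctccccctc
Zfp518a: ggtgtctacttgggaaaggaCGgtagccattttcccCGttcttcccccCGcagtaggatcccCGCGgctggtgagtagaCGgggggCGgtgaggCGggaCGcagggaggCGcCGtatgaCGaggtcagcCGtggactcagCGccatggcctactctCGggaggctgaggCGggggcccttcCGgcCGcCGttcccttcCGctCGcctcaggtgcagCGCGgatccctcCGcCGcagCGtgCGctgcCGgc
Tmem109: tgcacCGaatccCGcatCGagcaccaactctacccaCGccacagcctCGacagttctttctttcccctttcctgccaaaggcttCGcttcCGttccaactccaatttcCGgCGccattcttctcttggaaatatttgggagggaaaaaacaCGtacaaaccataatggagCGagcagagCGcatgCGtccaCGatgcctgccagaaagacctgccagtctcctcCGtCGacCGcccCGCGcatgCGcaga
Mpeg1: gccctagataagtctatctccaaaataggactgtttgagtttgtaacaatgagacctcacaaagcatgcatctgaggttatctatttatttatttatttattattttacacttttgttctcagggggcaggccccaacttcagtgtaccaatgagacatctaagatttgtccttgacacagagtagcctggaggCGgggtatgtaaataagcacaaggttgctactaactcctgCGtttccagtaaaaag
The Mpeg1 stretch held 2 CG dinucleotides, against 31 for Atrnl1, 28 for Zfp518a and 20 for Tmem109. Over the 296 of 361 members with a promoter in the table, the median was 17 CG dinucleotides, over the 8377 of 10479 tested genes with one it was 16, and over all 27025 promoters it was 6. The median was 15.5 in the 60 matched members that stood higher in WT and 21 in the 8 matched members that stood lower in WT by the call rule given further on. The letters TATAAA, on either strand, were in 9.12% of matched members, 6.06% of matched tested genes and 12.97% of all promoters. The letters CCGGAAG, the core of many ETS factor sites, were in 17.9%, 15.9% and 7.05%. The share of tested genes with a promoter in the table was too low for these letters to serve as a check, and nothing is read from them. Among the 4 shown, Zfp518a held CCGGAAG and none held TATAAA.

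The median chromosome 19 gene was higher in WT than in each mutant line. In the log2(FPKM + 1) values, where differences of genes with low values are understated, each gene was set against its mean over the 8 libraries. The median of the 361 members then lay at 0.300 and 0.310 in the WT libraries, at -0.100 and -0.0803 in CBE-/- (1), at -0.0974 and -0.0855 in CBE-/- (2), and at -0.104 and -0.0714 in the Eµ-/- line. Both WT libraries lay above the other 6, and the 3 mutant lines overlapped one another. The genes tested outside chromosome 19 had medians between -0.0263 and 0.0318 in the same libraries. Members made up 4.33 and 4.28% of the summed FPKM in WT and 3.18 to 3.38% in the mutant libraries. The depth implied by the deposited FPKM intervals was 31.3 to 49.5 M reads per library, and the median member had 1428 to 2250 implied reads.

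Line by line, the median log2 difference of the members from WT was -0.41 in CBE-/- (1), -0.37 in CBE-/- (2) and -0.40 in the Eµ-/- line, beside 0.02, 0.04 and 0.01 over all genes tested. These comparisons share the WT libraries. With limma's test across all genes (adjusted p under the threshold of 0.05, called here), 127 members were lower in CBE-/- (1) than in WT, 35.2% of members beside 8.54% of all genes tested, and 22 were higher (6.09% beside 10.9%). In CBE-/- (2), 124 were lower (34.3% beside 8.19%) and 18 higher (4.99% beside 10.5%). In the Eµ-/- line, 146 were lower (40.4% beside 10.4%) and 19 higher (5.26% beside 11.3%). Nothing in the labels tells whether both libraries of a line were grown as separate cultures, so the p-values reflect only library-to-library spread, possibly technical.

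The counts of calls rested on single libraries far more than the size of the shift did. Without WT replicate 1 or 2, the members called lower numbered 44 or 37 in CBE-/- (1), 41 or 40 in CBE-/- (2) and 41 or 36 in the Eµ-/- line. Over all genes tested, the 895, 858 and 1095 lower calls fell in the same leave-outs to 408 or 379, 388 or 396, and 444 or 420. Without CBE-/- (2) replicate 1 or 2, members called lower numbered 72 or 72, 36 or 38, and 87 or 87, and all genes 623 or 622, 365 or 366, and 732 or 731. The CBE-/- (1) count was 77 without its own replicate 1, beside 551 of all genes, and the Eµ-/- count was 100 without its own replicate 2, beside 822. Over all 8 leave-outs the median difference stayed between -0.41 and -0.38 in CBE-/- (1), between -0.38 and -0.37 in CBE-/- (2) and between -0.41 and -0.35 in the Eµ-/- line.

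Between the mutant lines the members differed little as a block. Their median was 0.01 for CBE-/- (2) against CBE-/- (1), 0.00 for the Eµ-/- line against CBE-/- (1) and -0.01 for the Eµ-/- line against CBE-/- (2). CBE-/- (2) had 15 members higher than CBE-/- (1) (4.16% beside 5.17% of all genes) and 15 lower (4.16% beside 5.03%). Likewise, the Eµ-/- line had 12 higher than CBE-/- (1) (3.32% beside 4.01%) and 15 lower (4.16% beside 6.02%), and 22 higher than CBE-/- (2) (6.09% beside 5.62%) and 25 lower (6.93% beside 7.62%). These shares are near the background of all genes. The counts moved with single libraries. For CBE-/- (2) against CBE-/- (1), they were 6 higher and 5 or 4 lower without CBE-/- (2) replicate 1 or 2, 7 higher and 10 lower without either WT library, 9 higher and 8 lower without CBE-/- (1) replicate 1, 9 lower without its replicate 2, and 23 higher without either Eµ-/- library. For the Eµ-/- line against CBE-/- (1), those higher were 24 without Eµ-/- replicate 1, 3 or 4 without CBE-/- (1) replicate 1 or 2, and 6 without any of the other 5 libraries, and those lower were 25 without Eµ-/- replicate 1. Against CBE-/- (2), they were 45 higher without Eµ-/- replicate 1 and 14 without its replicate 2, 7 or 5 higher and 11 or 9 lower without CBE-/- (2) replicate 1 or 2, and 13 higher and 15 lower without either WT library.

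Against the mean of the other 3 lines, members in WT had a median difference of 0.42, with quartiles of 0.16 and 0.61, and all genes tested a median of -0.02. Of the members, 310 of 361 were above 0 (85.9% beside 47.1% of all genes, with no test). On the linear scale, the 283 members of mean FPKM 5 or more had a median WT-to-other ratio of 1.36, with quartiles of 1.17 and 1.52, beside 0.979 for the 7879 genes of that level. Of the other 19 chromosomes (Y, with 4 genes tested, left out), chromosome 18 had the highest median in WT (0.17), and the remaining 18 lay between -0.09 and 0.08. In CBE-/- (1), CBE-/- (2) and the Eµ-/- line, chromosome 19 had medians of -0.13, -0.11 and -0.13, while chromosome 18 was at 0.36, -0.26 and -0.25.

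**Figure D1:**
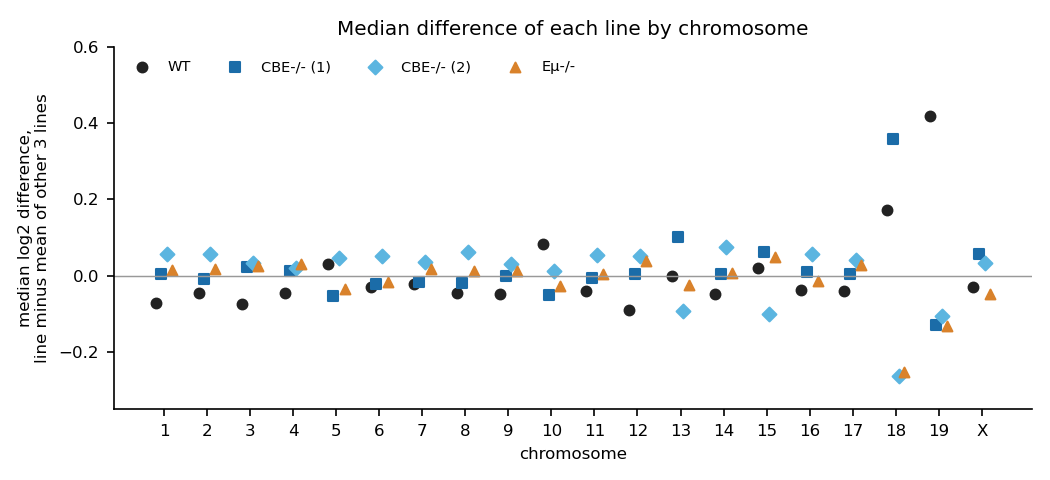
Median log2(FPKM + 1) difference of each line from the mean of the other 3 lines (vertical axis) over the genes tested on each chromosome (horizontal axis), with 1 symbol per line. On chromosome 19 the WT median is 0.42 and the 3 mutant lines lie between -0.13 and -0.11.

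Gene by gene, both WT libraries lay above the other 6 libraries for 209 members (57.9% beside 14.0% of all genes tested) and below them for 25 (6.93% beside 18.2%). A gene was taken as set apart in a line when it was called in the same direction against each of the other 3 lines and its 2 libraries did not overlap the other 6. In WT, 74 members were set apart higher (20.5% beside 3.58%) and 9 lower (2.49% beside 4.46%). The count of 74 fell to 13 without WT replicate 1, to 11 without WT replicate 2, and to 18 and 19 without CBE-/- (2) replicate 1 and 2. Over all genes tested, the 375 set apart higher in WT fell in the same leave-outs to 161, 159, 202 and 206. The count of 9 lower members stayed between 8 and 11. Of the 361 members, 2 (Mpeg1 and Cnnm2) reached 1 FPKM in the WT libraries alone, and Aldh3b1 too would have failed the filter without WT. Below 1 FPKM in both WT libraries were 12 members, 5 of them among the 9 set apart lower. The filter itself selects such genes for a difference.

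The shift ran along nearly the whole chromosome. In windows of 10 Mb, by the gene's start, the median WT difference was 0.40 over 155 members in the first window, then 0.42 over 41, 0.36 over 30, 0.30 over 30, 0.48 over 74, 0.47 over 22, and 0.46 over 9 in the last. Members above 0 made up 82.6% of the first window and 94.6% of the window with 74 members. A running median over 15 neighbouring members was above 0 at 342 of 347 positions and below 0.2 at 21 of them. Its lowest value, -0.10, fell on the 15 genes from Cpt1a to Gstp2 (mm9 chr19:3323301-4042221), of which 5 were above 0. Its highest, 0.66, fell on the 15 genes from Bloc1s2 to Fbxw4 (mm9 chr19:44213737-45734683), of which 14 were above 0.

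**Figure D2:**
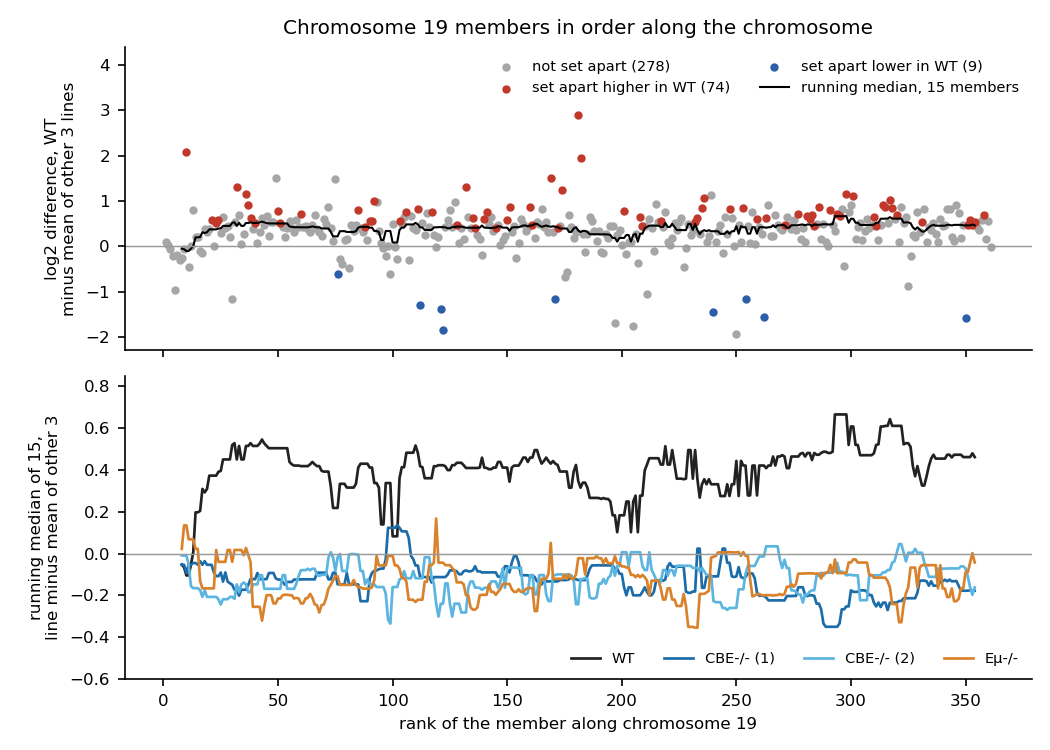
The upper panel plots the log2(FPKM + 1) difference of WT from the mean of the other 3 lines for each of the 361 members in order along the chromosome, coloured by whether the gene was set apart in WT, with a running median over 15 members. The lower panel plots the same running median for each line; WT runs above 0 at 342 of 347 positions and the mutant lines mostly below.

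The proximal end held the longest stretch of genes that did not stand higher in WT. Of the 51 members at or below 0, 26 had a neighbour that was also at or below 0, in 10 runs, and the longest run was the 7 genes from Cpt1a to Ndufs8 (mm9 chr19:3323301-3912774). Cpt1a encodes an enzyme of fatty acid uptake into mitochondria for oxidation. It was at 15 and 15.7 FPKM in WT, 10.9 and 11 in CBE-/- (1), 15.3 and 16.4 in CBE-/- (2), and 18.9 and 30.2 in the Eµ-/- line. WT and CBE-/- (2) overlapped, CBE-/- (1) was lower and the Eµ-/- line higher. Ndufs8, a subunit of respiratory complex I, measured 153 and 141 FPKM in WT, 162 and 159 in CBE-/- (1), 160.2 and 152 in CBE-/- (2), and 153 and 129.9 in the Eµ-/- line. The 4 lines spanned a narrow range, with WT inside that of the others. Directly beside Ndufs8, Aldh3b1, an aldehyde dehydrogenase of lipid aldehydes, had 6.64 and 5.43 FPKM in WT against 0.540 and 0.746 in CBE-/- (1), 0.455 and 0.467 in CBE-/- (2), and 0.790 and 1.00 in the Eµ-/- line. Its WT values lay far above the other 6. A little further along, the near-identical glutathione transferase genes Gstp1 and Gstp2 had WT differences of -0.10 ± 0.08 and -0.15 ± 0.10 (± SE), and reads shared between them make each value uncertain. The genes of this run were chosen by their values and carry no test.

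The shift was of similar size at low and high expression. In 3 equal groups by mean log2(FPKM + 1), the median WT difference was 0.40 in the lowest, 0.44 in the middle and 0.42 in the highest group, while genes on other chromosomes in the same ranges had -0.05, -0.04 and 0.00. Of the 9 members set apart lower in WT, 7 were in the lowest group, 2 in the middle one and 0 in the highest. In that lowest group, 92 of 120 members were above 0, beside 109 of 120 in the middle group and 109 of 121 in the highest. The lowest group is also where the filter acted.

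The genes of each role were next taken in turn, from 9 lists by known function, and for each the number of members, the median WT difference and the number set apart in WT are given. These are descriptions, since every list is a sample of the same chromosome, whose median was 0.42. The counts set apart higher in WT can be read beside 20.5% of members and 3.58% of all genes tested. Those called lower than WT can be read beside 35.2%, 34.3% and 40.4% of members and 8.54%, 8.19% and 10.4% of all genes in CBE-/- (1), CBE-/- (2) and the Eµ-/- line. The median of each list stayed above 0 under every other setting and leave-out tried, with 0.14 as the lowest value of any list (splicing, in a leave-out). The counts of genes set apart rested on single libraries: without WT replicate 1 or 2, the mitochondrial list had 2 or 1 set apart higher, the trafficking list 2 or 1, the immune and signalling list 2 and 2, and the other 6 lists 0. Without CBE-/- (2) replicate 1 or 2, the mitochondrial list had 2 or 1, the trafficking list 1 or 2, the immune and signalling list 3 and 3, the ribosome and transcription lists 1 each, and the other 4 lists 0.

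Genes for mitochondrial proteins had the highest list median, 0.66 over 21 members, with 10 set apart higher in WT and 1 lower (Nudt22). Nudt22 is a hydrolase of nucleotide sugars, and its place in this list is uncertain. Against WT, 12 members of the list were lower and 3 higher in CBE-/- (1), 10 lower and 1 higher in CBE-/- (2), and 13 lower and 1 higher in the Eµ-/- line. Cox8a, a subunit of cytochrome c oxidase, was at 1257 and 1253 FPKM in WT, 722 and 709 in CBE-/- (1), 811 and 763 in CBE-/- (2), and 829 and 640.0 in the Eµ-/- line. Both WT libraries exceeded every mutant library, by 0.76 ± 0.12 (log2 ± SE against the other 3 lines, largest limma adjusted p = 0.0191). Ndufb8, another subunit of complex I, measured 659 and 572 FPKM in WT, 404 and 304 in CBE-/- (1), 382 and 329.9 in CBE-/- (2), and 390.5 and 303 in the Eµ-/- line. Here too WT was highest throughout, by 0.81 ± 0.16 (largest limma adjusted p = 0.0321). Sfxn2, an inner membrane carrier of the sideroflexin family, had 4.35 and 4.58 FPKM in WT against 1.64 and 1.64 in CBE-/- (1), 2.66 and 2.78 in CBE-/- (2), and 1.98 and 1.42 in the Eµ-/- line. Its WT difference was 0.88 ± 0.10 (largest limma adjusted p = 0.0194). Prdx5, a peroxiredoxin that removes peroxides, was at 452 and 329.6 FPKM in WT, 613 and 589 in CBE-/- (1), 439.8 and 412 in CBE-/- (2), and 408 and 385 in the Eµ-/- line. This gene went the other way: CBE-/- (1) was above all other libraries and was called higher than WT (limma adjusted p = 0.0338), and WT overlapped CBE-/- (2) and the Eµ-/- line. The complex I genes Ndufs8 and Ndufv1 near the proximal end had WT differences of -0.05 ± 0.09 and 0.20 ± 0.09, with none of their 3 comparisons with WT called. Ndufb8, Sfxn2 and Ndufv1 were picked from the list after their values were seen. Most genes set apart higher in this list lost that status without either WT library. Whether the calls of Cox8a, Ndufb8 and Sfxn2 held in the leave-outs is not given here.

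Ribosome and translation genes all stood above 0 in WT, 17 of 17, with a median of 0.47 and 4 set apart higher. Called lower than WT were 10 of them in CBE-/- (1), 4 in CBE-/- (2) and 9 in the Eµ-/- line, and none was called higher. Eef1g, a subunit of the elongation factor that delivers aminoacyl-tRNA, measured 1058 and 1074 FPKM in WT, 555 and 597 in CBE-/- (1), 531 and 588 in CBE-/- (2), and 674 and 573 in the Eµ-/- line. Every WT value was well above every mutant value, with a difference of 0.86 ± 0.10 (largest limma adjusted p = 0.00626). The Eef1g call was lost without either WT library. Fau, whose product is cleaved into a ubiquitin-like peptide and a protein of the small ribosomal subunit, had 1356 and 1482 FPKM in WT against 784 and 1125 in CBE-/- (1), 1028 and 1186 in CBE-/- (2), and 965 and 1071 in the Eµ-/- line. Both WT libraries were highest, but the spread within CBE-/- (1) was wide and no comparison with WT was called (limma adjusted p = 0.0773, 0.254 and 0.124). Both genes have processed copies elsewhere in the genome that could share reads. Npm3, a nucleolar chaperone of the nucleoplasmin family, chosen after its values were seen, was at 103 and 110.4 FPKM in WT, 52.4 and 35.7 in CBE-/- (1), 59.7 and 56.7 in CBE-/- (2), and 55.1 and 39.8 in the Eµ-/- line. The WT libraries lay above the rest by 1.10 ± 0.17 (largest limma adjusted p = 0.0336), a call also lost without either WT library.

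Among 16 splicing and RNA export members, all 16 were above 0 with a median of 0.28, and 3 were set apart higher in WT. Called lower than WT were 4, 3 and 6 of them in CBE-/- (1), CBE-/- (2) and the Eµ-/- line, and none was called higher. Sf3b2, a component of the spliceosome's U2 particle, measured 183 and 169 FPKM in WT, 151 and 119 in CBE-/- (1), 148 and 140.1 in CBE-/- (2), and 142 and 104 in the Eµ-/- line. Both WT libraries were above all mutant libraries, yet no comparison with WT was called (smallest limma adjusted p = 0.0798). Snhg1, a host transcript of small nucleolar RNAs, had 449 and 833 FPKM in WT against 267 and 476 in CBE-/- (1), 252 and 518 in CBE-/- (2), and 353 and 1539 in the Eµ-/- line. Replicate 2 was above replicate 1 in all 4 lines, the lines overlapped, and no comparison with WT was called. Its locus overlaps Snord22, and reads from the overlap cannot be assigned to 1 of them with certainty.

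The 27 transcription and chromatin members had a median of 0.28, with 21 above 0, 2 set apart higher in WT and none lower. Those called lower than WT numbered 5, 7 and 9 in CBE-/- (1), CBE-/- (2) and the Eµ-/- line, and those called higher 1, 1 and 0. Polr2g, a subunit of RNA polymerase II, was at 189 and 196 FPKM in WT, 135 and 129.5 in CBE-/- (1), 117 and 115 in CBE-/- (2), and 142 and 117 in the Eµ-/- line. The WT libraries were the highest, by 0.61 ± 0.09 (largest limma adjusted p = 0.0180), a call lost without either WT library. Banf1, which binds DNA at the nuclear lamina, measured 603 and 628 FPKM in WT, 438 and 428 in CBE-/- (1), 432 and 407 in CBE-/- (2), and 467 and 356 in the Eµ-/- line. Both WT libraries again led, but the gene missed the call against CBE-/- (1) (limma adjusted p = 0.0514), and its locus overlaps Eif1ad. The tumour suppressor Men1 spanned a narrow range, with 47.1 and 47.7 FPKM in WT and 45.2 to 52.8 FPKM in the mutant libraries, and was picked after its values were seen.

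Replication, repair and mitosis genes had a median of 0.39 over 19 members, with 18 above 0 and 2 set apart higher. The calls against WT were 5 lower in each CBE-/- line and 9 lower in the Eµ-/- line, with none higher. Ddb1, the adaptor of a ubiquitin ligase in DNA repair, had 167 and 149 FPKM in WT against 144 and 85.1 in CBE-/- (1), 124 and 102 in CBE-/- (2), and 131 and 78.0 in the Eµ-/- line. In each line replicate 2 was below replicate 1, and both WT libraries were above the other 6 by a small margin, without a call (limma adjusted p = 0.322, 0.354 and 0.196). Cdk2ap2, a protein associated with a cell cycle kinase, was at 114 and 105 FPKM in WT, 92.1 and 106 in CBE-/- (1), 78.5 and 71.4 in CBE-/- (2), and 79.3 and 76.2 in the Eµ-/- line. It was called lower than WT in CBE-/- (2) and the Eµ-/- line (limma adjusted p = 0.0148 and 0.0216), while CBE-/- (1) overlapped WT.

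Trafficking and cytoskeleton genes had a median of 0.43 over 27 members, 25 of them above 0, with 8 set apart higher in WT. Called lower than WT were 10, 15 and 13 in CBE-/- (1), CBE-/- (2) and the Eµ-/- line, and called higher 2, 1 and 1. Rab1b, a small GTPase of transport from the endoplasmic reticulum to the Golgi, measured 107 and 98.6 FPKM in WT, 76.2 and 70.9 in CBE-/- (1), 75.2 and 69.3 in CBE-/- (2), and 79.5 and 63.5 in the Eµ-/- line. WT was highest in both libraries, by 0.50 ± 0.10 (largest limma adjusted p = 0.0439). Arl2, a GTPase needed for tubulin folding, chosen after its values were seen, had 73.3 and 72.3 FPKM in WT against 35.7 and 35.7 in CBE-/- (1), 34.9 and 33.0 in CBE-/- (2), and 40.6 and 35.8 in the Eµ-/- line. WT stood at about the same distance from each mutant line, with a difference of 1.00 ± 0.08 (largest limma adjusted p = 0.000895). Most genes set apart higher in this list lost that status without either WT library. Whether the calls of Rab1b and Arl2 held in the leave-outs is not given here. Cfl1, the actin-severing protein cofilin, was at 1326 and 1134 FPKM in WT, 1212 and 888 in CBE-/- (1), 1089 and 884 in CBE-/- (2), and 1068 and 657 in the Eµ-/- line. WT overlapped CBE-/- (1), replicate 2 was below replicate 1 in each line, and no comparison with WT was called.

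The 15 iron, redox and protein folding members had a median of 0.47, with 13 above 0 and 4 set apart higher in WT, and 7, 7 and 9 were called lower than WT in the 3 mutant lines in the same order, with none higher. Fth1, the heavy chain of the iron store ferritin, measured 778 and 665 FPKM in WT, 629.8 and 646 in CBE-/- (1), 440.0 and 434 in CBE-/- (2), and 377 and 399 in the Eµ-/- line. Both WT libraries were highest, and Fth1 was called lower than WT in CBE-/- (2) and the Eµ-/- line and not in CBE-/- (1) (limma adjusted p = 0.346), and it has many processed copies that could share reads. Ubxn1, an adaptor of the p97 unfolding enzyme, had 225 and 245 FPKM in WT against 141 and 156 in CBE-/- (1), 152 and 168 in CBE-/- (2), and 147 and 162 in the Eµ-/- line. WT exceeded each mutant library, by 0.61 ± 0.09 (largest limma adjusted p = 0.0153), a call lost without either WT library.

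In the lipid list the median was 0.29 over 18 members, 14 of them above 0, with 2 set apart higher in WT and 1 lower (Pank1). Called lower than WT were 3, 3 and 7 in the mutant lines, and called higher 2 in each. Acsl5, which activates long-chain fatty acids, was at 201 and 185 FPKM in WT, 142 and 143 in CBE-/- (1), 123 and 110.5 in CBE-/- (2), and 134 and 109 in the Eµ-/- line. WT was highest, with calls against CBE-/- (2) and the Eµ-/- line but not against CBE-/- (1) (limma adjusted p = 0.0526). Scd2, a stearoyl-CoA desaturase, measured 208 and 202 FPKM in WT, 142 and 124 in CBE-/- (1), 183 and 158 in CBE-/- (2), and 169.7 and 113 in the Eµ-/- line. Both WT libraries were above the other 6, and none of the 3 comparisons was called (smallest limma adjusted p = 0.0699). Immune and signalling genes had a median of 0.27 over 22 members, with 17 above 0 and 4 set apart higher, with 6, 6 and 5 called lower than WT and 2, 1 and 1 higher. Ppp1ca, a catalytic subunit of protein phosphatase PP1, had 858 and 805 FPKM in WT against 667 and 559 in CBE-/- (1), 641 and 583 in CBE-/- (2), and 679 and 533 in the Eµ-/- line. WT led in both libraries without a call (smallest limma adjusted p = 0.0812), and the locus overlaps Rad9a. Ostf1, an SH3 adaptor protein, was at 134 and 119 FPKM in WT, 115 and 107 in CBE-/- (1), 101 and 96.0 in CBE-/- (2), and 109 and 104 in the Eµ-/- line. Both WT libraries were above the other 6 by a small margin, and no comparison was called (smallest limma adjusted p = 0.0546).

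**Figure D3:**
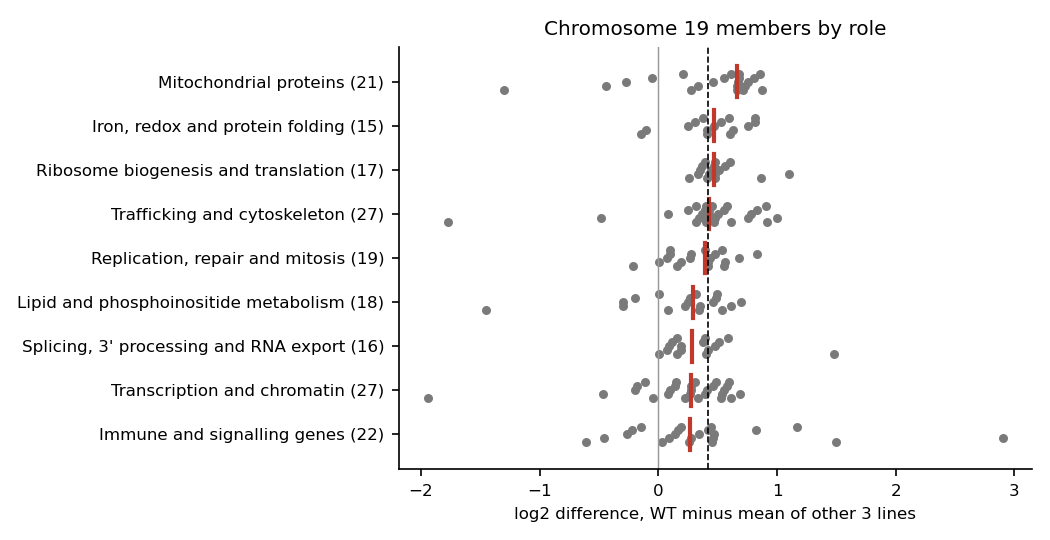
Each point is 1 member, placed by its log2(FPKM + 1) difference of WT from the mean of the other 3 lines (horizontal axis) in 9 lists by role (vertical axis, number of members in brackets). Red bars are list medians, from 0.27 to 0.66, and the dashed line is the median of all 361 members, 0.42.

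A few members stood much higher in WT than the chromosome as a whole. Mpeg1 (mm9 chr19:12535269-12539775) encodes the pore-forming perforin-2 of macrophages and other cells that take up microbes. It measured 10.3 and 5.85 FPKM in WT, 0.208 and 0.314 in CBE-/- (1), 0.224 and 0.0792 in CBE-/- (2), and 0.175 and 0.0641 in the Eµ-/- line. The difference was 2.91 ± 0.18 (largest limma adjusted p = 0.000292). Only WT reached 1 FPKM, so the filter itself selected Mpeg1 for this difference, and its p-value carries that limit. Of 5 myeloid markers, Csf1r, Elane and Mpo were at or near 0 in all 8 libraries, and Lyz2 was at 6.36 and 3.15 FPKM in WT and 0.44 to 7.19 FPKM in the mutant libraries. Itgam was at 0.293 and 0.120 FPKM in WT and 0.570 to 1.66 FPKM in the mutant libraries, so that WT lay below the other 6. The sum of the 5 was 6.69 and 3.27 FPKM in WT and 1.61 to 8.85 FPKM in the mutant libraries, and 0 of the 5 reached 1 FPKM in all 8. Their part in the Mpeg1 difference was not tested. Directly next to Mpeg1, Dtx4 (mm9 chr19:12540826-12576486), a Deltex ubiquitin ligase of the Notch pathway, had 13.9 and 13.5 FPKM in WT against 0.804 and 2.54 in CBE-/- (1), 2.81 and 3.16 in CBE-/- (2), and 4.05 and 4.67 in the Eµ-/- line. WT was again far above the rest, by 1.96 ± 0.23 (largest limma adjusted p = 0.0141). This call was lost without WT replicate 1 (largest limma adjusted p = 0.0845), WT replicate 2 (0.0816) or Eµ-/- replicate 2 (0.0515).

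Aldh3b1 (mm9 chr19:3913491-3929716), at the proximal end, differed by 2.08 ± 0.10 (largest limma adjusted p = 0.000125), and its call held in all 8 leave-outs. Without WT this gene would have failed the filter, so it too was selected for a difference. Slc15a3 (mm9 chr19:10917034-10932405), a lysosomal transporter of histidine and small peptides, was at 29.8 and 32.9 FPKM in WT, 9.13 and 15.9 in CBE-/- (1), 8.82 and 10.4 in CBE-/- (2), and 8.99 and 10.8 in the Eµ-/- line. WT was the highest, by 1.50 ± 0.19 (largest limma adjusted p = 0.0110). The call was lost without WT replicate 1 (0.0564) or 2 (0.0839), and the locus overlaps Tmem132a. Tmem223 (mm9 chr19:8845486-8846965), a protein of the mitochondrial inner membrane, measured 68.7 and 73.0 FPKM in WT, 39.3 and 38.4 in CBE-/- (1), 22.3 and 20.8 in CBE-/- (2), and 23.1 and 29.7 in the Eµ-/- line. WT was followed by CBE-/- (1) and then by the remaining lines, and the difference of 1.31 ± 0.10 (largest limma adjusted p = 0.00476) held in all 8 leave-outs. Ssh3 (mm9 chr19:4261668-4269172), a phosphatase of the slingshot family, had 8.78 and 6.07 FPKM in WT against 4.02 and 2.28 in CBE-/- (1), 1.32 and 0.868 in CBE-/- (2), and 3.37 and 3.58 in the Eµ-/- line. Its difference of 1.31 ± 0.20 was near the threshold (largest limma adjusted p = 0.0432) and was lost in 7 of the 8 leave-outs, in all but that of CBE-/- (1) replicate 1, with values from 0.0723 without WT replicate 2 to 0.230 without WT replicate 1. It was also lost with a pseudocount of 0.1 (0.0615), without the filter (0.0839), with TPM scaling (0.0567) and with quantile normalization (0.0549).

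The 9 members set apart lower in WT ran against the chromosome. They were Atrnl1, Zfp518a, Pank1, Nudt22, Slc35g1, Tmem109, Frmd8 and the unnamed models 2700081O15Rik and AI846148, neighbours at mm9 chr19:7430954-7457516 and chr19:7492115-7500394. The models 2700081O15Rik and AI846148 had WT differences of -1.84 ± 0.08 and -1.39 ± 0.10, and both overlap other entries. Atrnl1 (mm9 chr19:57685524-58207830), an attractin-like membrane protein, was at 0.00346 and 0 FPKM in WT, 1.36 and 2.02 in CBE-/- (1), 3.54 and 3.09 in CBE-/- (2), and 1.21 and 1.55 in the Eµ-/- line. The WT libraries held 1.99 and 0 implied reads, where CBE-/- (2) held 1265 and 1193. The difference of -1.59 ± 0.12 depends on the pseudocount, since WT was near 0. Pank1 (mm9 chr19:34881426-34953945), the pantothenate kinase at the start of coenzyme A synthesis, measured 0.0152 and 0.00531 FPKM in WT, 1.85 and 1.72 in CBE-/- (1), 1.63 and 1.96 in CBE-/- (2), and 1.72 and 1.73 in the Eµ-/- line. The 6 mutant values lay close together and both WT values were near 0. The 3 mutant lines did not differ by a call (limma adjusted p = 0.995, 0.891 and 0.855), while WT differed by -1.45 ± 0.08 (largest limma adjusted p = 0.000122). Zfp518a (mm9 chr19:40969195-40992437), a zinc finger protein, had 0.385 and 0.245 FPKM in WT against 3.21 and 3.34 in CBE-/- (1), 2.23 and 2.48 in CBE-/- (2), and 2.62 and 3.63 in the Eµ-/- line. WT was lowest, with a difference of -1.57 ± 0.11 (largest limma adjusted p = 0.000765). The loci of Atrnl1, Pank1 and Zfp518a overlap the microRNA entries Mir5623, Mir107 and Mir8092.

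Tmem109 (mm9 chr19:10945152-10956233), a channel protein of the endoplasmic reticulum and nuclear membranes, was at 12.1 and 12.5 FPKM in WT, 25.4 and 29.2 in CBE-/- (1), 28.5 and 29.3 in CBE-/- (2), and 29.8 and 29.7 in the Eµ-/- line. This was the clearest exception at a higher level, with tight values in each line and a difference of -1.15 ± 0.08 (largest limma adjusted p = 0.000447). Slc35g1 (mm9 chr19:38470470-38480097), a membrane protein of the SLC35 transporter family, measured 3.52 and 3.86 FPKM in WT, 9.36 and 7.30 in CBE-/- (1), 11.4 and 12 in CBE-/- (2), and 9.62 and 8.16 in the Eµ-/- line. WT lay below all 6 mutant libraries, with a difference of -1.16 ± 0.11 (largest limma adjusted p = 0.00360). Nudt22 (mm9 chr19:7067509-7070527), a Nudix hydrolase of nucleotide sugars, had 0.651 and 0.543 FPKM in WT against 2.46 and 2.62 in CBE-/- (1), 2.41 and 2.42 in CBE-/- (2), and 3.52 and 4.48 in the Eµ-/- line. WT was lowest and the Eµ-/- line highest. Frmd8 (mm9 chr19:5850974-5875208), which stabilises the iRhom proteins at the cell surface, was at 15.7 and 16.1 FPKM in WT, 26.6 and 23.6 in CBE-/- (1), 25.2 and 24.5 in CBE-/- (2), and 23.9 and 24.5 in the Eµ-/- line. WT was below the rest, with a difference of -0.60 ± 0.08 (largest limma adjusted p = 0.00629), a call lost without WT replicate 1 (0.0599) or 2 (0.0539) or CBE-/- (2) replicate 1 (0.0528). The calls of Atrnl1, Zfp518a, Pank1, Nudt22, Slc35g1 and Tmem109 in WT held in all 8 leave-outs. Of these, Atrnl1, Zfp518a, Pank1 and Nudt22 were below 1 FPKM in both WT libraries. They passed the filter only through the mutant lines, so it selected them for this difference, and their p-values carry that limit.

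**Figure D4:**
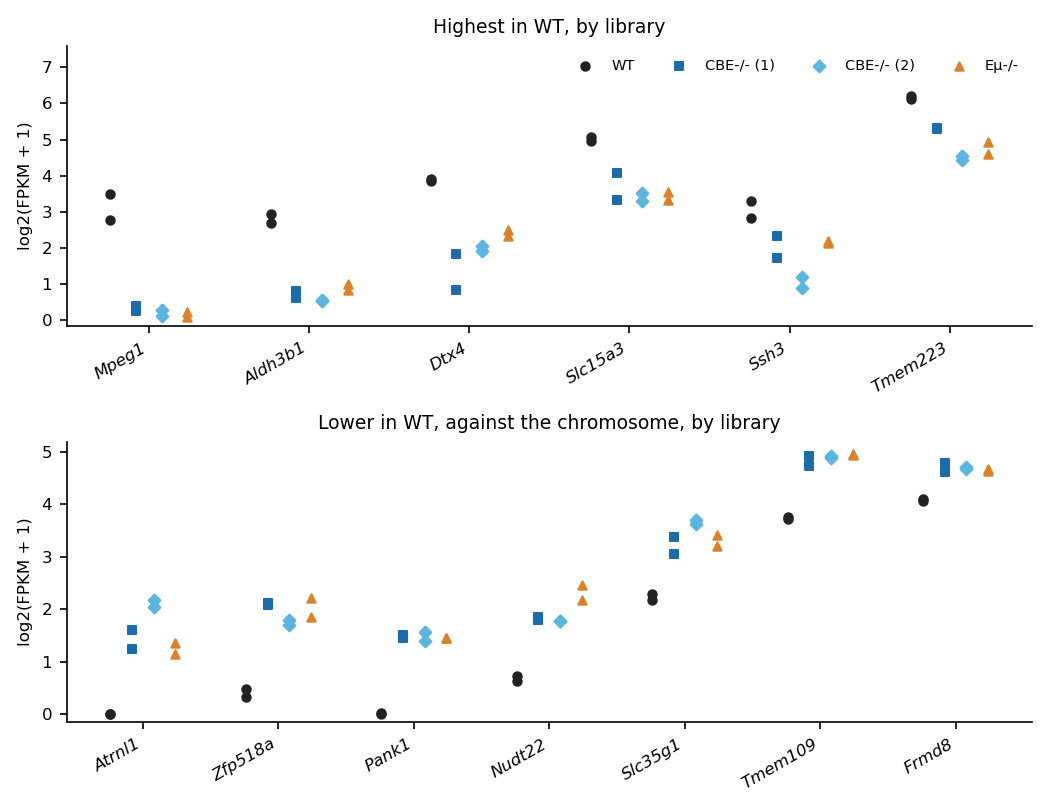
log2(FPKM + 1) (vertical axis) in each of the 8 libraries, with 1 symbol per line, for the 6 members highest in WT among those set apart (upper panel) and for 7 named members set apart lower in WT (lower panel). In every gene both WT points lie outside the other 6, above them in the upper panel and below them in the lower panel.

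In each mutant line only a few members were set apart, at shares below or near those of all genes tested. CBE-/- (1) had 2 higher (0.554% beside 1.43%) and 2 lower (0.554% beside 0.744%). Hhex (mm9 chr19:37509331-37515221), a homeobox factor of blood progenitors and early B cells, measured 0.0211 and 0.0110 FPKM in WT, 7.40 and 13.9 in CBE-/- (1), 2.56 and 1.58 in CBE-/- (2), and 0.664 and 0.856 in the Eµ-/- line. All 6 mutant libraries were above WT, whose libraries held 3 and 1 implied reads, and CBE-/- (1) was above every other library. Its difference in CBE-/- (1) was 2.67 ± 0.23 (largest limma adjusted p = 0.00759), a call lost without CBE-/- (2) replicate 2 (0.0669). Add3 (mm9 chr19:53214933-53321816), the gamma adducin of the spectrin and actin skeleton, had 16.7 and 14.7 FPKM in WT against 3.16 and 3.76 in CBE-/- (1), 10.8 and 9.92 in CBE-/- (2), and 15.9 and 14.9 in the Eµ-/- line. CBE-/- (1) was far below the others, with a difference of -1.71 ± 0.09 (largest limma adjusted p = 0.000801), in all 8 leave-outs. Bscl2 (mm9 chr19:8911957-8923173), the lipid droplet protein seipin, was at 2.15 and 1.93 FPKM in WT, 4.49 and 5.20 in CBE-/- (1), 1.49 and 1.45 in CBE-/- (2), and 1.69 and 2.24 in the Eµ-/- line. CBE-/- (1) was highest by 1.06 ± 0.10 (largest limma adjusted p = 0.00388), also in all 8 leave-outs, and the locus overlaps Gng3. Insl6 (mm9 chr19:29395844-29399808), a peptide of the insulin and relaxin family, measured 7.78 and 8.10 FPKM in WT, 2.26 and 2.50 in CBE-/- (1), 7.85 and 8.15 in CBE-/- (2), and 3.52 and 4.44 in the Eµ-/- line. CBE-/- (1) was lowest and the Eµ-/- line second lowest. The CBE-/- (1) call (difference -1.12 ± 0.09, largest limma adjusted p = 0.0294) was lost in 7 leave-outs, in all but that of Eµ-/- replicate 1, with values of 0.0704 without CBE-/- (1) replicate 2 to 0.113 without CBE-/- (1) replicate 1.

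CBE-/- (2) had 4 members set apart higher (1.11% beside 2.10%) and 4 lower (1.11% beside 0.983%); 1 of the former is the unnamed model 1810055G02Rik. Kank1 (mm9 chr19:25311692-25508986), an adaptor of focal adhesions, had 1.94 and 1.05 FPKM in WT against 2.58 and 2.30 in CBE-/- (1), 11.3 and 9.52 in CBE-/- (2), and 2.53 and 2.45 in the Eµ-/- line. CBE-/- (2) was several times above every other library, by 1.88 ± 0.15 (largest limma adjusted p = 0.00179), in all 8 leave-outs. Acy3 (mm9 chr19:3986661-3990005), an aminoacylase, was at 1.94 and 1.46 FPKM in WT, 1.93 and 2.15 in CBE-/- (1), 0.369 and 0.478 in CBE-/- (2), and 3.51 and 3.38 in the Eµ-/- line. CBE-/- (2) was lowest, with a difference of -1.22 ± 0.09 (largest limma adjusted p = 0.00196), and the Eµ-/- line highest, so this gene was set apart in both lines. The Eµ-/- call (largest limma adjusted p = 0.0294) was lost without any 1 of the 6 mutant libraries, with values from 0.0610 without Eµ-/- replicate 1 to 0.111 without CBE-/- (1) replicate 1. Atrnl1, nearly silent in WT, was highest in CBE-/- (2) by 1.22 ± 0.12 (largest limma adjusted p = 0.0289), a call lost without either WT library (0.0682 and 0.0680), CBE-/- (1) replicate 1 (0.0961) or either CBE-/- (2) library (0.178 and 0.110).

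Ablim1 (mm9 chr19:57107754-57290522), an actin-binding LIM protein, measured 37.3 and 43.8 FPKM in WT, 26.6 and 41.7 in CBE-/- (1), 8.54 and 12.6 in CBE-/- (2), and 21.7 and 32.7 in the Eµ-/- line. CBE-/- (2) was below the rest, with a difference of -1.58 ± 0.24 (largest limma adjusted p = 0.0329), a call lost in 6 leave-outs, those of either WT library (0.0683 and 0.0682), CBE-/- (1) replicate 2 (0.0719), either CBE-/- (2) library (0.204 and 0.0783) and Eµ-/- replicate 2 (0.134). Pla2g16 (mm9 chr19:7631949-7663035), a phospholipase A, had 7.77 and 6.36 FPKM in WT against 5.22 and 3.74 in CBE-/- (1), 2.02 and 1.58 in CBE-/- (2), and 5.51 and 5.29 in the Eµ-/- line. CBE-/- (2) was lowest, with a difference of -1.23 ± 0.14 (largest limma adjusted p = 0.0146), and the call was lost without CBE-/- (1) replicate 1 (0.0582) or either CBE-/- (2) library (0.0605 and 0.125). Nt5c2 (mm9 chr19:46961321-47089679), a cytosolic nucleotidase of purines whose locus overlaps Ina, was at 22.1 and 20.4 FPKM in WT, 16.7 and 13.3 in CBE-/- (1), 9.16 and 7.63 in CBE-/- (2), and 20.1 and 19.4 in the Eµ-/- line. Its CBE-/- (2) difference of -1.05 ± 0.11 (largest limma adjusted p = 0.0160) was lost in the same 3 leave-outs (0.0656, 0.0548 and 0.135).

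In the Eµ-/- line, 3 members were set apart higher (0.831% beside 1.22%) and 6 lower (1.66% beside 1.46%). Calhm2 (mm9 chr19:47206722-47212784), a large-pore channel protein, measured 2.80 and 3.25 FPKM in WT, 2.02 and 3.23 in CBE-/- (1), 3.32 and 4.17 in CBE-/- (2), and 0.00909 and 0.00957 in the Eµ-/- line. Each Eµ-/- library held 1 implied read, and the other 6 overlapped one another. The difference was -2.02 ± 0.14 (largest limma adjusted p = 0.00122). Like those of Pank1 and Hhex, its size depends on the pseudocount, since 1 line was near 0. Il33 (mm9 chr19:29999604-30035205), an alarm cytokine of the interleukin-1 family, had 7.51 and 8.24 FPKM in WT against 9.53 and 5.3 in CBE-/- (1), 9.14 and 8.52 in CBE-/- (2), and 1.43 and 1.35 in the Eµ-/- line. The Eµ-/- line was lowest, with a difference of -1.90 ± 0.18 (largest limma adjusted p = 0.00397), in all 8 leave-outs, as for Calhm2.

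Aldh1a7 (mm9 chr19:20767443-20802046), an aldehyde dehydrogenase close in sequence to Aldh1a1, with which it may share reads, was at 2.06 and 1.93 FPKM in WT, 38.9 and 24.1 in CBE-/- (1), 24.4 and 16 in CBE-/- (2), and 0.556 and 0.2 in the Eµ-/- line. The CBE-/- lines were both high, WT low and the Eµ-/- line lowest, with a difference of -3.20 ± 0.23 (largest limma adjusted p = 0.0302) that was lost without either WT library (0.147 and 0.131) or Eµ-/- replicate 2 (0.130). Fads2 (mm9 chr19:10138654-10175993), a desaturase of polyunsaturated fatty acids, measured 80.8 and 63.7 FPKM in WT, 76.8 and 58.3 in CBE-/- (1), 85.4 and 66.8 in CBE-/- (2), and 32.6 and 19.6 in the Eµ-/- line. The Eµ-/- line was below the rest, with a difference of -1.46 ± 0.22 (largest limma adjusted p = 0.0231), while WT and the CBE-/- lines overlapped. That call was lost without WT replicate 1 (0.0802), either CBE-/- (1) library (0.112 and 0.0530), either CBE-/- (2) library (0.101 and 0.0538) or Eµ-/- replicate 2 (0.0756). Pdlim1 (mm9 chr19:40296729-40346106), a PDZ and LIM protein of actin fibres, had 5.18 and 5.44 FPKM in WT against 5.85 and 4.54 in CBE-/- (1), 3.07 and 2.73 in CBE-/- (2), and 1.52 and 0.868 in the Eµ-/- line. WT and CBE-/- (1) were highest, then CBE-/- (2), then the Eµ-/- line, whose difference of -1.30 ± 0.14 (largest limma adjusted p = 0.0226) was lost without either WT library (0.0549 and 0.0549), either CBE-/- (2) library (0.152 and 0.106) or Eµ-/- replicate 2 (0.0701).

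Higher in the Eµ-/- line were Acy3, Nudt22 and Rcor2. Rcor2 (mm9 chr19:7344254-7349715), a corepressor of the CoREST family, was at 11.2 and 9.12 FPKM in WT, 8.41 and 8.09 in CBE-/- (1), 8.35 and 6.95 in CBE-/- (2), and 13.9 and 21.0 in the Eµ-/- line. Eµ-/- replicate 2 was well above replicate 1, and the difference of 0.92 ± 0.16 (largest limma adjusted p = 0.0487) was lost in 7 leave-outs, in all but that of Eµ-/- replicate 1, with values from 0.0869 without CBE-/- (2) replicate 1 to 0.242 without WT replicate 2. The Nudt22 call in this line (difference 0.89 ± 0.09, largest limma adjusted p = 0.0455) was lost in the same 7, from 0.0971 without WT replicate 1 to 0.152 without CBE-/- (2) replicate 1. The counts of genes set apart in the mutant lines moved accordingly. In the Eµ-/- line, those higher were 7 and those lower 15 without Eµ-/- replicate 1; those higher were 0 without its replicate 2 or any CBE-/- library and 1 without either WT library; and those lower were 3 without WT replicate 1. In CBE-/- (1), those higher were 1 without CBE-/- (2) replicate 2, and those lower were 6 or 4 without Eµ-/- replicate 1 or 2 and 1 without either WT library, either CBE-/- (2) library or CBE-/- (1) replicate 1. In CBE-/- (2), those higher were 2 without either WT or either CBE-/- (2) library, and those lower were 1 without either CBE-/- (2) library and 2 without CBE-/- (1) replicate 1.

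Other processing settings also ended some of the calls in the mutant lines. A pseudocount of 0.1 ended those of Acy3 (largest limma adjusted p = 0.0616) and Nudt22 (0.0664) in the Eµ-/- line. A pseudocount of 5 ended those of Aldh1a7 (0.265) and Rcor2 (0.0501). Without the filter on low values, Insl6 (0.0577), Ablim1 (0.0646), Rcor2 (0.0853), Nudt22 (0.0696), Aldh1a7 (0.0627) and Fads2 (0.0543) lost theirs, as did Insl6 (0.0617) and Rcor2 (0.0534) with only genes of mean FPKM 5 or more, Nudt22 (0.0609) with TPM scaling, and Rcor2 (0.0526) and Pdlim1 (0.0665) with quantile normalization.

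**Figure D5:**
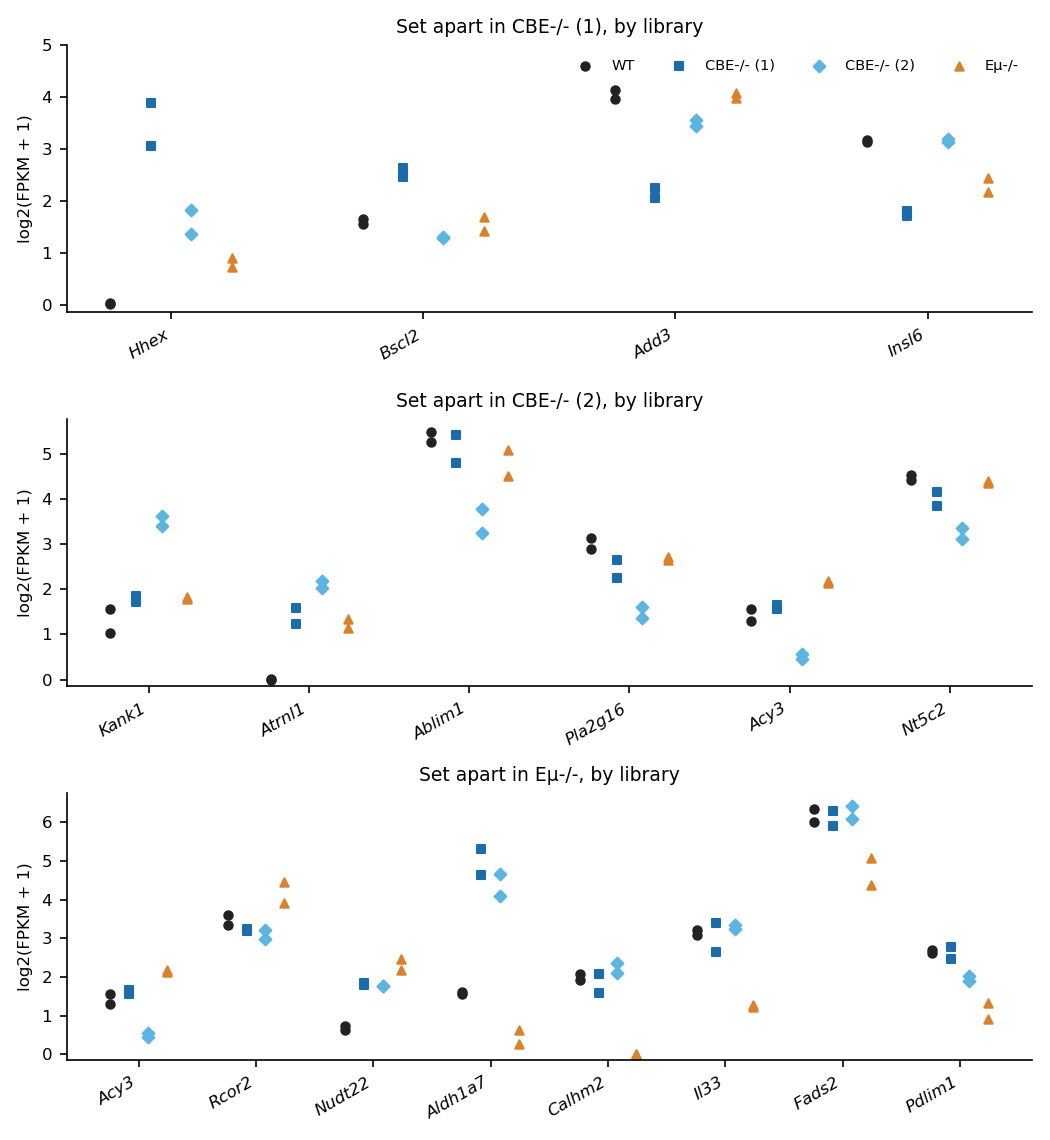
log2(FPKM + 1) (vertical axis) in each of the 8 libraries, with 1 symbol per line, for the named members set apart in CBE-/- (1) (top panel), CBE-/- (2) (middle panel) and the Eµ-/- line (bottom panel). In each panel both points of the named line lie outside the other 6, and Atrnl1, Acy3 and Nudt22 differ among several lines.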

How the data were processed

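RNA-seq libraries of 4 pro-B cell lines, 2 per line, were analysed from the deposited FPKM tables, with 24459 entries per library. Per the submitters' processing notes, TopHat, Cufflinks and mm9 were used. Version numbers and the use of strand in counting were left unstated by these sources, which leaves overlapping genes uncertain. Implied reads of an entry are the squared ratio of its FPKM to the SD of its deposited interval, taken as 2 SD on each side. They are an estimate that describes depth only. Values of a symbol with several loci were summed. Genes whose status was not OK were excluded.

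Genes with 1 FPKM or more in at least 2 libraries were tested with limma 3.58.1 (R 4.3.3) on log2(FPKM + 1), with an empirical Bayes trend, in 1 fit of all 8 libraries (4 residual degrees of freedom), for 6 pairwise contrasts. P-values were adjusted by Benjamini-Hochberg over all 10479 genes, with a threshold of 0.05. A difference of a line from the mean of the other 3 has its SE from this fit and no test of its own. Beside it stands the largest adjusted p of the 3 contrasts of that line. The procedure was also run on simulated data with independent noise of the same SD in every gene. The real libraries differ in this, so that run is no check of the calls given here. Depth limits the genes near 0 most.

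The members, role lists and marker lists were chosen with earlier results of these data known. Named genes were the 6 highest and 6 lowest among those set apart in each line, up to 10 exceptions to the shift in WT, and the 2 members of highest mean FPKM in each role list, passing over unnamed models. A gene that the rule also names is not reported here. Others are said to be chosen after their values were seen. Alternatives covered the pseudocount, filter, scaling, limma settings, libraries in the fit, the replicate number as a block, and each library left out. Promoter letters are from RefSeq (GRCm38.p6), and motifs were searched on both strands from 250 bases before the start to the start.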

Additional observations from a re-analysis of the deposited data

Results flagged for a closer look

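Of the members named, 20 had effects against WT that differed between 2 mutant lines by limma's test of the difference itself. All of them but Ssh3, Tmem223 and Fth1 had been named as set apart in a mutant line. That rule already requires a call between mutant lines, so the count of 20 follows from the naming and is no separate result. Values are log2(FPKM + 1) differences ± SE between those lines, for the called pair with the largest difference. They carry the same limits as the calls above, and genes near 0 in a line depend on the pseudocount.

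In the Eµ-/- line against CBE-/- (2), the difference was 1.11 ± 0.24 for Ssh3 (limma adjusted p = 0.0302), 0.54 ± 0.12 for Nudt22 (limma adjusted p = 0.0274) and 1.20 ± 0.17 for Pla2g16 (limma adjusted p = 0.00476). It was also 1.64 ± 0.12 for Acy3 (limma adjusted p = 0.000210), 1.15 ± 0.14 for Nt5c2 (limma adjusted p = 0.00240) and 1.07 ± 0.20 for Rcor2 (limma adjusted p = 0.0162). It was lower, at -0.86 ± 0.14 for Atrnl1 (limma adjusted p = 0.0110) and -2.23 ± 0.18 for Calhm2 (limma adjusted p = 0.000370). It was also -2.04 ± 0.22 for Il33 (limma adjusted p = 0.00168) and -1.54 ± 0.27 for Fads2 (limma adjusted p = 0.0128).

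In the Eµ-/- line against CBE-/- (1), the difference was 1.88 ± 0.12 for Add3 (limma adjusted p = 0.000154). It was lower, at -2.67 ± 0.28 for Hhex (limma adjusted p = 0.00164), -4.53 ± 0.28 for Aldh1a7 (limma adjusted p = 0.000148) and -1.51 ± 0.17 for Pdlim1 (limma adjusted p = 0.00250). It was also -0.72 ± 0.11 for Fth1 (limma adjusted p = 0.00966).

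In CBE-/- (2) against CBE-/- (1), the difference was 1.41 ± 0.12 for Insl6 (limma adjusted p = 0.000669) and 1.73 ± 0.18 for Kank1 (limma adjusted p = 0.00179). It was lower, at -0.82 ± 0.13 for Tmem223 (limma adjusted p = 0.00984), -1.24 ± 0.12 for Bscl2 (limma adjusted p = 0.00154) and -1.59 ± 0.29 for Ablim1 (limma adjusted p = 0.0179).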

How the results depend on the processing

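No difference of a gene named for being set apart in a line changed sign under any setting tried. Genes named only for their level or picked after their values were seen were not part of that check. Medians between mutant lines, all near 0, did change sign. That of CBE-/- (2) against CBE-/- (1) went from 0.014 to -0.012 without CBE-/- (1) replicate 1. Of the values of comparisons recomputed with other settings, 300 stayed within a set margin of the reported value and 56 moved. For counts the margin was wide. A change from 124 to 182 members lower than WT in CBE-/- (2), with the replicate block, was taken as staying. For medians the margin came from the spread between the 2 libraries of each line compared. With leave-outs, 131 stayed and 77 moved. For genes named as set apart in a line or as exceptions to the shift, 19 calls were lost and 367 kept with other settings. A larger share of these calls was lost in leave-outs. Genes named only for their level in a role list, such as Cox8a and Eef1g, are not in this tally. Neither are those picked after their values were seen.

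Median differences from WT in CBE-/- (1) were -0.43 (pseudocount 0.1), -0.31 (pseudocount 5), -0.36 (TPM scaling), -0.43 (quantile normalization) and -0.43 (scaling to genes outside chromosome 19). In CBE-/- (2) they were -0.43, -0.28, -0.34, -0.43 and -0.42, with -0.41 for genes of mean FPKM 5 or more and -0.40 for median-of-ratios scaling. In the Eµ-/- line they were -0.44 (pseudocount 0.1), -0.30 (pseudocount 5), -0.33 (TPM) and -0.43 (outside chromosome 19). The Eµ-/- line against CBE-/- (2) had 0.018 with TPM and 0.025 with quantile normalization.

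With genes of mean FPKM 5 or more, fewer genes were tested. Those higher than WT were 9 in CBE-/- (1), 6 in CBE-/- (2) and 8 in the Eµ-/- line. CBE-/- (2) against CBE-/- (1) gave 5 higher and 6 lower, the Eµ-/- line 5 and 6 against CBE-/- (1), and 10 and 8 against CBE-/- (2). Set apart were 4 lower in WT, 0 higher and 1 lower in CBE-/- (1), 0 and 2 in CBE-/- (2), and 0 and 3 in the Eµ-/- line.

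With only the 4 libraries compared, 202 members were lower than WT in CBE-/- (2) and 63 in the Eµ-/- line, where the lower calls over all genes went from 858 to 1538 and from 1095 to 615. CBE-/- (2) against CBE-/- (1) gave 7 lower, the Eµ-/- line 2 higher against CBE-/- (1), and 9 higher and 16 lower against CBE-/- (2). Without the filter, 1 member was set apart lower in CBE-/- (1) and 1 higher in the Eµ-/- line, also 1 with pseudocount 0.1. Quantile normalization gave 9 set apart lower in CBE-/- (2). Causes were not tested.

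The replicate numbers are shared between lines, but nothing says that they mark a pair. The difference of replicate 1 and 2 correlated between lines across 10479 genes at 0.279 to 0.502, a hint from the data and not from the design. With the replicate block, members lower than WT numbered 203 in CBE-/- (1), 182 in CBE-/- (2) and 210 in the Eµ-/- line. Lower calls over all genes were 1476, 1371 and 1723, in place of 895, 858 and 1095. CBE-/- (2) against CBE-/- (1) gave 25 higher and 27 lower, the Eµ-/- line 28 and 25 against CBE-/- (1), and 34 and 39 against CBE-/- (2). With the block, 135 were set apart higher in WT, 4 higher and 6 lower in CBE-/- (1), 10 lower in CBE-/- (2) and 10 lower in the Eµ-/- line. Over all genes, those set apart went from 375 to 611 higher in WT, from 150 to 230 higher and 78 to 141 lower in CBE-/- (1), from 103 to 199 lower in CBE-/- (2), and from 153 to 268 lower in the Eµ-/- line. By role, the block raised those set apart higher in WT from 2 to 9 in the transcription list, from 4 to 8 in the iron, redox and folding list, and from 2 to 5 in the lipid list.

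Over the 8 leave-outs, CBE-/- (1) had 16 to 24 members higher than WT and 37 to 176 lower (median -0.41 to -0.38), CBE-/- (2) 13 to 21 and 36 to 159 (-0.38 to -0.37), and the Eµ-/- line 13 to 26 and 36 to 153 (-0.41 to -0.35). CBE-/- (2) against CBE-/- (1) ranged from 6 to 23 higher and 4 to 18 lower (median -0.012 to 0.014). The Eµ-/- line ranged from 3 to 24 and 11 to 25 against CBE-/- (1) (-0.012 to 0.017), and from 5 to 45 and 9 to 37 against CBE-/- (2) (-0.011 to 0.034). Set apart were 11 to 88 higher and 8 to 11 lower in WT, 1 to 3 and 1 to 6 in CBE-/- (1), 2 to 5 and 1 to 5 in CBE-/- (2), and 0 to 7 and 3 to 15 in the Eµ-/- line. With 1 library left in a line, that library is assumed to vary like the others. Depth limits genes near 0, such as Atrnl1 and Hhex in WT.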
